A study of Mus musculus with 16 samples.

Results

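The genes described here are 34 mouse genes of the unfolded protein response and of protein folding in the endoplasmic reticulum (ER). They were taken by symbol from a fixed list. No measured value enters that rule, but the list was chosen with earlier results of these data known. The list was split by role into 15 chaperone and folding genes, 4 genes of the ATF6 and IRE1-XBP1 sensors and factors, 7 genes of the PERK-ATF4 arm and 8 genes of ER degradation. All 34 were found by Ensembl identifier among the 30325 genes of the gonadal fat table and the 30946 genes of the subcutaneous fat table. All 34 passed the filter on low values in both depots.

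RNA sequencing had been done on 16 fat samples, 4 per group. The groups are gonadal fat with the LCN2 vector, gonadal fat with the GFP vector, subcutaneous fat with the LCN2 vector and subcutaneous fat with the GFP vector. All donors were female mice of a Lcn2-null strain on the C57BL/6J background, so both arms lack the endogenous protein lipocalin-2, a secreted carrier of iron-binding siderophores. At 8 weeks of age they were injected intravenously with an AAV8 vector. It carried LCN2, the construct for lipocalin-2, or GFP, for the green fluorescent protein used as control. Both constructs were driven by an adiponectin promoter, which is active in fat cells, and held a target site for a liver microRNA that leads to breakdown of the transcript in liver. Every mouse was kept on a HF/HS diet until fat was taken at 16 weeks. Every group thus shares the null allele, an AAV8 vector and the diet. The comparison addresses how LCN2 expressed in fat cells affects each depot, here for the genes of ER folding and ER stress.

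The ER folds secreted and membrane proteins, and in fat cells these include adiponectin and other adipokines. When unfolded proteins build up, 3 sensors in the ER membrane respond: ATF6, IRE1 (encoded by Ern1) and PERK (encoded by Eif2ak3). ATF6 is cut to give a transcription factor, and IRE1 splices the Xbp1 transcript to give another, and both raise chaperone and degradation genes. PERK phosphorylates eIF2alpha, which lowers translation in general but favours that of ATF4, a factor that induces Ddit3 (CHOP), Trib3 and Asns. ER-associated degradation (ERAD) moves misfolded proteins out of the ER to the proteasome. Activity of these sensors is set by splicing, cleavage and phosphorylation, none of which a gene-level count measures.

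The DNA element through which ATF6 and XBP1 are known to act was looked for in the promoters of the genes, and some matches are shown because the element lay in windows of chaperone and degradation genes and in none of the PERK-ATF4 arm. RefSeq promoter windows of GRCm38.p6, 250 bases before to 50 bases after each start site, were matched by symbol for 29 of the 34 genes. The ER stress element ERSE, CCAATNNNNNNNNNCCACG on either strand, was found in 9 of these 29 windows and in 0.119% of all 32851 windows. Of the 9, 7 were among the 13 chaperone and folding windows (Calr, Canx, Creld2, Dnajc3, Hsp90b1, Hspa5 and Pdia6) and 2 among the 7 ER degradation windows (Derl3 and Syvn1). None was found in the 3 windows of the sensors or the 6 of the PERK-ATF4 arm. The related ERSE-II, ATTGGNCCACG, was found in Dnajb11 and Herpud1, against 0.0365% of all windows. The amino acid response element CARE, TGATGNAA, was found in Asns, Trib3 and Herpud1, against 3.97% of all windows. The XBP1 motif UPRE, TGACGTGG, was in none of the 29 windows and in 0.676% of all. Stretches around matches upstream of the RefSeq start site are given below, 5′ to 3′ on the strand of the gene, with the match in capitals. Gene positions given further on come from another annotation, in which the Hspa5 and Asns stretches lie inside the gene.
Hspa5 ERSE (chr2:34772005-34772063, plus strand): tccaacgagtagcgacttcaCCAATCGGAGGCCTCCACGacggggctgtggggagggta
Calr ERSE, reverse complement (chr8:84847055-84847113, minus strand): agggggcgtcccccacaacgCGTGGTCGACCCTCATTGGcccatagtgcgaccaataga
Hsp90b1 first ERSE (chr10:86705618-86705676, minus strand): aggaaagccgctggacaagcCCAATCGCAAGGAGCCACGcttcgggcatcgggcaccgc
Hsp90b1 second ERSE, reverse complement (chr10:86705513-86705571, minus strand): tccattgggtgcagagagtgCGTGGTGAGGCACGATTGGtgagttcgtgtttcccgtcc
Syvn1 ERSE (chr19:6046512-6046570, plus strand): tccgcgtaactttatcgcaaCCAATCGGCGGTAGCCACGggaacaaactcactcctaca
Herpud1 ERSE-II (chr8:94386357-94386407, plus strand): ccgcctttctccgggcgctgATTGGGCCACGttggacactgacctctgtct
Asns CARE (chr6:7693210-7693252, minus strand): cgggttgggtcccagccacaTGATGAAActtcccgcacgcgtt
A match is a description of these letters and not evidence of a bound site.

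Gonadal values are read counts that the authors had divided by 1 size factor per sample, from libraries of 35173260 to 42890102 reads, and are called normalized counts. Subcutaneous values are rlog values, a log2 scale on which low genes are drawn towards their mean, and their depth is unknown. The 10 adipocyte markers were measured in both depots and summed to 20120 to 34110 CPM (recovered reads scaled to library size) in gonadal fat. Several libraries stood apart. In gonadal fat, 10 skeletal muscle markers summed to 1730 CPM in LCN2 sample 4 and to between 65.28 and 209.8 CPM in the other 7 samples. Hepatocyte markers summed to 613.5 and 1360 CPM in LCN2 samples 1 and 2 and to 525.5 CPM in GFP sample 1, and to at most 249.3 CPM elsewhere. GFP sample 4 was the highest of the 8 in fibroblast and progenitor markers, with 4913 CPM against 2245 to 3775 CPM, in mesothelial markers, with 459.3 CPM against 78.78 to 238.2 CPM, and in B cell and lymph node markers, with 28.19 CPM against 7.858 to 17.9 CPM. In subcutaneous fat, 12 B cell and lymph node markers had a median of 3.188 and 2.152 above their mean rlog in GFP samples 1 and 2 and of 1.6 in LCN2 sample 4, against -1.013 or lower in the other samples. Sums over a piece of tissue cannot tell fewer cells of a type from less RNA per cell.

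Lcn2 itself, the gene that the vector carries, separated the arms in both depots. In gonadal fat its normalized counts were 186, 189, 522 and 481 with the LCN2 vector, against 103, 62.1, 70.0 and 89.5 with the GFP vector. The log2 difference was 1.93 ± 0.37 (SE), and the exact two-sided permutation p was 0.0286, the smallest that 4 against 4 samples can give. The limma p of Lcn2, adjusted over all genes tested, was 0.108 there. In subcutaneous fat its rlog values were 8.74, 8.49, 9.45 and 9.82 with LCN2, against 7.76, 8.32, 8.23 and 8.37 with GFP. The difference was 0.95 ± 0.29 with the same exact p of 0.0286, and the adjusted limma p was 0.308. The GFP samples, which carry the null allele, thus had Lcn2 counts above 0 in gonadal fat. By limma Lcn2 passed in neither depot the adjusted threshold that is applied below to the ER genes.

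None of the 34 genes passed an adjusted p of 0.05 in either depot (limma with Benjamini-Hochberg adjustment over all genes tested), so no ER stress or chaperone gene is reported as changed. Over all genes 0.102% passed in gonadal fat and 0% in subcutaneous fat. The smallest adjusted p among the 34 was 0.181 in gonadal fat, for Edem1, a lectin that hands misfolded glycoproteins to degradation, and 0.308 in subcutaneous fat. The genes with the smallest p-values were Edem1, Ddit3, Xbp1, Derl1 and Atf4 in gonadal fat and Sel1l, Edem1 and Hspa5 in subcutaneous fat. In gonadal fat Xbp1 and Derl1 lay lower and the other 3 higher with LCN2, and the 3 subcutaneous genes all lay higher.

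At an unadjusted p under 0.05, 8 genes lay higher with LCN2 and 2 lower in gonadal fat, 10 of 34, where 14.8% of all genes were under that level, 7.44% higher and 7.38% lower. The count was 6 without LCN2 sample 2, where 10.5% of all genes were under that level, and 6 without GFP sample 2, where 10.6% were. Scaled to sample totals it was 4, where 11% of all genes were. In subcutaneous fat 3 of 34 were under it, all higher, where 14% of all genes were, 7.81% higher and 6.24% lower. This count was 5 without LCN2 sample 4, GFP sample 1 or GFP sample 3, where 11.2%, 9.17% and 19.2% of all genes were. All 4 LCN2 samples lay above all 4 GFP samples for 6 of the 34 genes in gonadal fat (Calr, Atf6b, Eif2ak3, Ddit3, Sel1l and Edem1) and below them for 1 (Derl1), where the groups did not overlap for 9.11% of all genes, 4.4% with LCN2 higher and 4.71% with LCN2 lower. In subcutaneous fat this held for 1 gene, Hspa5, where the groups did not overlap for 7.08% of all genes, 3.81% with LCN2 higher and 3.27% with LCN2 lower. None of the 34 was separated in both depots, while 1.81% of the 19109 genes tested in both were separated the same way. The median log2 difference of the 34 genes was 0.065 in gonadal fat, with 21 positive, beside 0.011 and 52% positive for all genes. In subcutaneous fat it was 0.064, with 25 positive, beside -0.001 and 49.8% positive for all genes. Leaving out 1 sample moved the gonadal median to between 0.018, without LCN2 sample 1, and 0.08, with 0.043 without GFP sample 1 and 0.029 without GFP sample 3. The subcutaneous median was then between 0.041, without GFP sample 4, and 0.076.

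**Figure D1:**
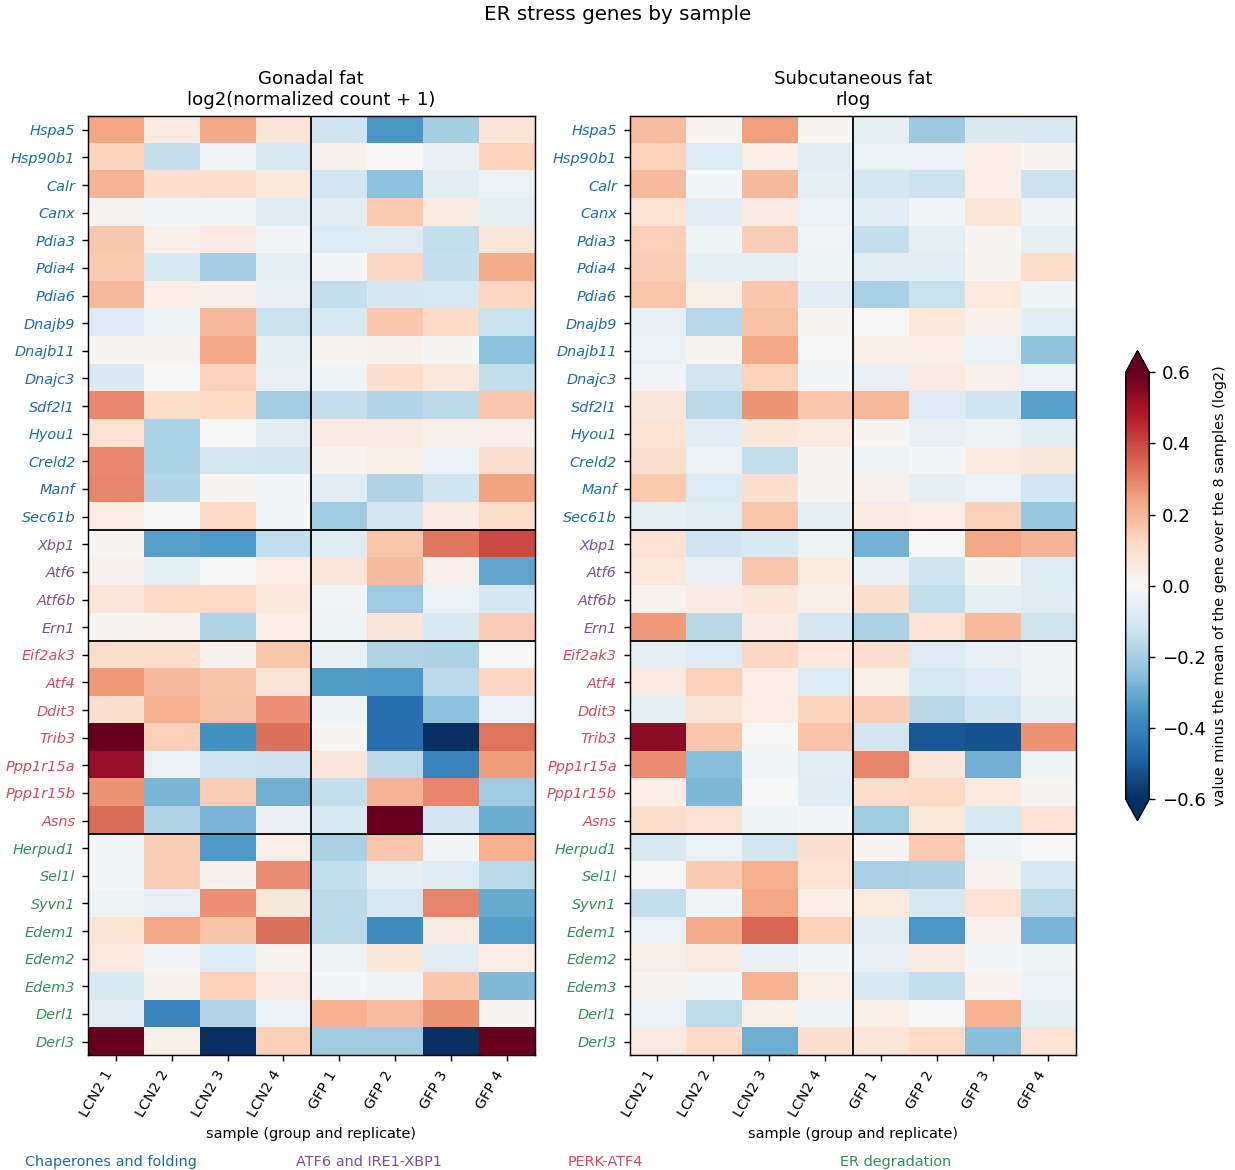
Values of the 34 genes by sample in gonadal fat (left, log2 of the normalized count plus 1) and subcutaneous fat (right, rlog), each minus the gene's mean over the depot's 8 samples, with LCN2 samples left of the black line and GFP samples right of it. Rows follow the roles; Edem1 and Ddit3 are higher in the 4 LCN2 gonadal samples and Derl1 lower, and colours stop at 0.6 on the log2 scale in either direction.

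The chaperone and folding genes had a median log2 difference of 0.063 in gonadal fat, with 9 of 15 positive, and of 0.071 in subcutaneous fat, with 12 of 15 positive. The gonadal median was smaller, between 0.021 and 0.04, without LCN2 sample 1, LCN2 sample 3 or any 1 of the GFP samples, the lowest without GFP sample 1. The subcutaneous median was 0.044 without LCN2 sample 3 and 0.042 without GFP sample 4, and quantile normalization left 8 of 15 positive. Hspa5 (BiP, ENSMUSG00000026864, chromosome 2, 34771970 to 34777547 on the plus strand, GRCm38) is the ER Hsp70 chaperone that also holds the sensors inactive. Its gonadal normalized counts were 10535, 9282, 10481 and 9431 with LCN2, against 8245, 7021, 7787 and 9443 with GFP. The groups overlapped only through GFP sample 4, which lay above 2 of the LCN2 samples, and the difference was 0.30 ± 0.11 (SE, adjusted p = 0.257). Without GFP sample 4 it was 0.371 (adjusted p = 0.111), and over all alternatives the adjusted p ran between 0.111 and 0.708. In subcutaneous fat Hspa5 had rlog values of 13.16, 12.98, 13.22 and 12.98 with LCN2, against 12.92, 12.75, 12.89 and 12.88 with GFP. Here every LCN2 sample lay above every GFP sample, by as little as 12.98 against 12.92, and the difference was 0.23 ± 0.07 (adjusted p = 0.308).

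Calr (calreticulin, chromosome 8, 84841850 to 84846934 on the minus strand), a calcium-binding lectin chaperone for glycoproteins, had gonadal normalized counts of 13297, 12375, 12372 and 12063 with LCN2, against 10663, 9735, 11030 and 11252 with GFP. The lowest LCN2 sample lay above the highest GFP sample, with a difference of 0.23 ± 0.09 (adjusted p = 0.263). In subcutaneous fat Calr overlapped between the groups, at a mean rlog of 13.30 ± 0.13 with LCN2 and 13.14 ± 0.08 with GFP (SD, n = 4 each). Canx (calnexin) is the membrane-bound lectin relative of calreticulin. Its gonadal mean was 8646 ± 225 normalized counts with LCN2 and 8927 ± 652 with GFP (SD, n = 4 each), and its subcutaneous difference was 0.01 ± 0.06 (SE).

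Hsp90b1 (GRP94), the Hsp90 of the ER, carries an ERSE match at both printed places of its promoter window and had a gonadal mean of 9136 ± 783 normalized counts with LCN2 and 9495 ± 518 with GFP (SD, n = 4 each). Its 95% interval for the log2 difference ran from -0.27 to 0.15 in gonadal fat and from -0.13 to 0.16 in subcutaneous fat. In GRCm38 annotation 10.3% of its exonic bases lie opposite another gene, and the strand setting of the count is not given. Among the protein disulfide isomerases, which form and reshuffle disulfide bonds, gonadal log2 differences were 0.11 ± 0.08 for Pdia3, -0.10 ± 0.11 for Pdia4 and 0.11 ± 0.09 for Pdia6. Their subcutaneous differences were 0.12 ± 0.06 for Pdia3, 0.01 ± 0.07 for Pdia4 and 0.15 ± 0.08 for Pdia6. None of these 6 differences reached an unadjusted p of 0.05.

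The J-domain co-chaperones, which drive the ATPase of BiP, lay close to 0. Dnajb9 (ERdj4), known as an XBP1 target, differed by -0.03 ± 0.10 in gonadal and -0.01 ± 0.08 in subcutaneous fat, and Dnajc3 (P58IPK), which also inhibits PERK, by 0.00 ± 0.09 and 0.00 ± 0.06. Dnajb11 (ERdj3) differed by 0.10 ± 0.10 in gonadal and 0.10 ± 0.08 in subcutaneous fat. Hyou1, a large Hsp70-related exchange factor, had a gonadal mean of 2331 ± 193 normalized counts with LCN2 and 2463 ± 21.04 with GFP (SD, n = 4 each). Sdf2l1, a partner of the J-domain proteins, differed by 0.15 ± 0.13 in gonadal and 0.16 ± 0.13 in subcutaneous fat. Creld2, an ER stress-induced folding factor, differed by -0.06 ± 0.12 and -0.04 ± 0.07, and Manf, a secreted ER stress protein, by 0.06 ± 0.13 and 0.09 ± 0.06. Sec61b, a subunit of the protein channel into the ER, differed by 0.08 ± 0.09 and -0.01 ± 0.09. Of these 8 genes none reached an unadjusted p of 0.05 in either depot.

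The promoter matches are set here beside the differences. The 9 genes with an ERSE match had a median log2 difference of 0.038 in gonadal fat, with 6 of 9 positive and a range of -0.058 for Hsp90b1 to 0.296 for Hspa5. The 20 genes with a window but no ERSE match had a median of 0.108, with 13 positive. In subcutaneous fat the medians were 0.014 for the 9 and 0.080 for the 20. These are counts over small sets and were given no test.

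**Figure D2:**
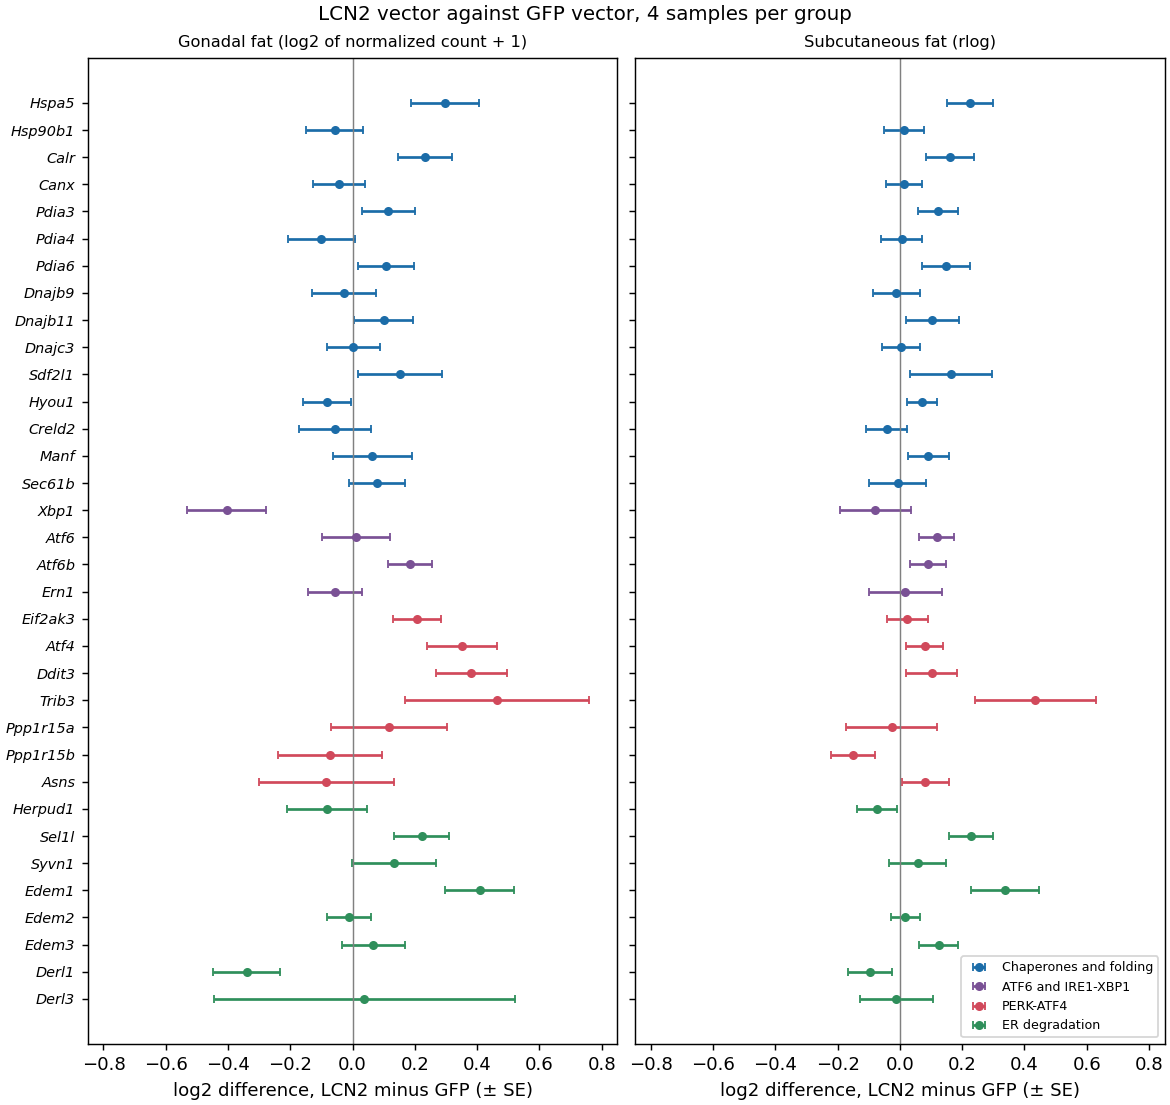
Log2 difference, LCN2 minus GFP, of each of the 34 genes with its SE from limma, in gonadal fat (left) and subcutaneous fat (right), 4 samples per group, coloured by role. Gonadal values run from -0.405 for Xbp1 to 0.462 for Trib3, and in subcutaneous fat Trib3, Edem1, Sel1l and Hspa5 lie farthest to the right.

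The sensors and factors of the ATF6 and IRE1-XBP1 arms went in both directions in gonadal fat, with a median of -0.022 and 2 of 4 positive, and the median was 0.003 without LCN2 sample 3 and 0.018 without GFP sample 2. Xbp1 (ENSMUSG00000020484, chromosome 11, 5520659 to 5525893 on the plus strand), the transcription factor whose mRNA IRE1 splices, had normalized counts of 5348, 4250, 4200 and 4800 with LCN2, against 5062, 5975, 6637 and 7011 with GFP. LCN2 sample 1 lay above GFP sample 1 and the other LCN2 samples below all GFP samples, and the difference was -0.40 ± 0.13 (SE, adjusted p = 0.208). The count sums the spliced and unspliced forms. In the same libraries all 10 mesothelial markers were lower with LCN2, at a median of -1.23, and summed to 78.8 to 202 CPM with LCN2 and 175 to 459 CPM with GFP. None of these markers was at 0 in all samples, and their part in the Xbp1 value was not tested.

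In subcutaneous fat Xbp1 had rlog values of 12.40, 12.19, 12.22 and 12.28 with LCN2, against 12.03, 12.32, 12.55 and 12.52 with GFP, a difference of -0.08 ± 0.11. GFP sample 1, which was highest in lymph node markers, was the lowest of the 8. GFP sample 2 and LCN2 sample 4, also high in these markers, lay at 12.32 and 12.28, within the range of the remaining samples. Without GFP samples 1 and 2 the difference was -0.26 (adjusted p = 0.904). The part of lymph node tissue in the Xbp1 value was not tested. Atf6b, a second ATF6 family member, had gonadal normalized counts of 1376, 1422, 1418 and 1370 with LCN2, against 1295, 1129, 1275 and 1222 with GFP. The groups did not overlap and the LCN2 samples spanned a narrow range, and the difference was 0.18 ± 0.07 (adjusted p = 0.272). Its subcutaneous difference was 0.09 ± 0.06.

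Atf6, the chaperone-inducing sensor itself, had a gonadal mean of 2393 ± 71.9 normalized counts with LCN2 and 2394 ± 340 with GFP (SD, n = 4 each), and differed by 0.12 ± 0.06 (SE) in subcutaneous fat. Ern1, which encodes IRE1, differed by -0.06 ± 0.09 in gonadal and 0.02 ± 0.12 in subcutaneous fat. Neither gene reached an unadjusted p of 0.05.

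The PERK-ATF4 genes had the largest median of the 4 roles in gonadal fat, 0.206 with 5 of 7 positive. Without each sample in turn this median lay between 0.178 and 0.241, and 4 of 7 were positive without LCN2 sample 1. Of the 7, 3 were under an unadjusted p of 0.05, all higher, where 14.8% of all genes were, 7.44% higher. Atf4 (ENSMUSG00000042406, chromosome 15, 80255184 to 80257541 on the plus strand), the transcription factor of this arm, had normalized counts of 2258, 2156, 2121 and 1990 with LCN2, against 1493, 1492, 1692 and 2060 with GFP. Only GFP sample 4 reached into the LCN2 range, and the difference was 0.35 ± 0.11 (adjusted p = 0.213). Without that sample it was 0.452 (adjusted p = 0.0568), and over all alternatives the adjusted p ran between 0.0568 and 0.751. Ddit3 (CHOP, chromosome 10, 127290774 to 127296288 on the plus strand), a factor induced by ATF4 and linked to cell death under lasting stress, had 425, 463, 449 and 481 with LCN2, against 390, 290, 335 and 388 with GFP. Its groups did not overlap, and the difference was 0.38 ± 0.11 (adjusted p = 0.198). A second identifier of the same symbol shares 6.13% of its exonic bases on the same strand, so a small part of its reads is ambiguous.

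Eif2ak3 (PERK) had normalized counts of 820, 820, 776 and 855 with LCN2, against 737, 671, 667 and 761 with GFP. The lowest LCN2 sample lay above the highest GFP sample by a small margin, and the difference was 0.21 ± 0.08 (adjusted p = 0.267). In annotation 8.05% of its exonic bases lie opposite Gm43292, whose reads cannot be told apart from its own without the strand setting. Trib3, a pseudokinase that ATF4 and CHOP induce, had a wide spread. Its counts were 496, 312, 219 and 354 with LCN2, against 283, 206, 161 and 353 with GFP, a difference of 0.46 ± 0.30 with a 95% interval of -0.21 to 1.13. That is the largest difference of the 34 with all samples, but it was 0.268 without LCN2 sample 1 and 0.272 without GFP sample 3, below Ddit3 at 0.414 and 0.363.

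The remaining members of the arm gave no common direction. Ppp1r15a (GADD34), the induced subunit of the phosphatase that reverses eIF2alpha phosphorylation, differed by 0.12 ± 0.19 in gonadal fat, and Ppp1r15b (CReP), its constitutive counterpart, by -0.07 ± 0.17. Asns, the ATF4 target that makes asparagine, had a gonadal mean of 1662 ± 326 normalized counts with LCN2 and 1802 ± 601 with GFP (SD, n = 4 each), and GFP sample 2 held its highest value, 2693.

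In subcutaneous fat the PERK-ATF4 genes had a median difference of 0.079, with 5 of 7 positive and none under an unadjusted p of 0.05. Trib3 had rlog values of 8.65, 8.27, 8.11 and 8.28 with LCN2, against 8.00, 7.60, 7.59 and 8.38 with GFP. GFP sample 4 lay above 3 of the 4 LCN2 samples, and the difference was 0.44 ± 0.19 (adjusted p = 0.361). Atf4 had 11.11, 11.19, 11.09 and 10.96 with LCN2, against 11.08, 10.95, 10.97 and 11.02 with GFP, so the groups overlapped and the difference was 0.08 ± 0.06. Ddit3 differed by 0.10 ± 0.08, Eif2ak3 by 0.02 ± 0.07, Asns by 0.08 ± 0.08, Ppp1r15a by -0.03 ± 0.15 and Ppp1r15b by -0.15 ± 0.07. Whether the LCN2 difference of Atf4 or Ddit3 differs between depots was not tested, since the tables were normalized separately.

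**Figure D3:**
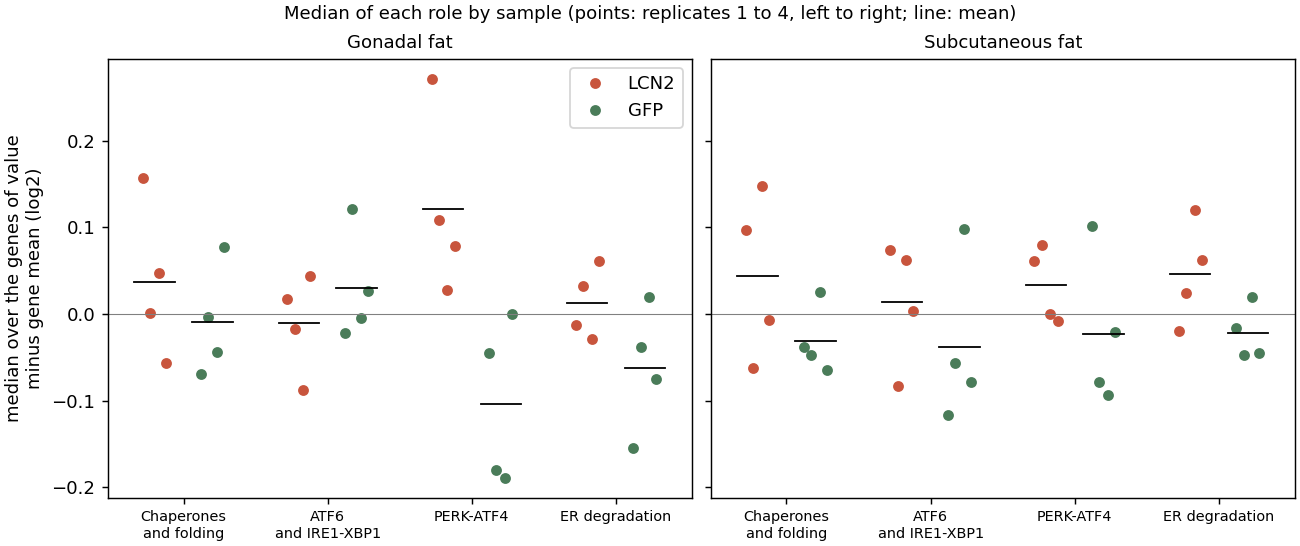
Median over the genes of each role of the value minus the gene's mean over the 8 samples of the depot (log2), with 1 point per sample, LCN2 left of GFP, and lines for group means. In gonadal fat the PERK-ATF4 medians lie between 0.028 and 0.271 in LCN2 samples and between -0.189 and 0 in GFP samples, and the other roles overlap between the groups.

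Per sample, the median of the 7 PERK-ATF4 genes relative to their means was 0.271, 0.108, 0.028 and 0.078 in gonadal LCN2 samples, against -0.045, -0.18, -0.189 and 0 in GFP samples. These groups did not overlap, though the closest values were 0.028 in LCN2 sample 3 and 0 in GFP sample 4. How often the medians of other gene sets separate in this way was not counted. For the 15 chaperone and folding genes the gonadal values were 0.157, 0.001, 0.047 and -0.056 with LCN2, against -0.069, -0.003, -0.044 and 0.077 with GFP. LCN2 sample 1 was the highest and GFP sample 4 the second highest, so each group held a high sample. No test was made over these medians, because the genes were chosen with earlier results known.

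The single smallest p-value of the list belonged to an ER degradation gene in each depot, Edem1 in gonadal fat and Sel1l in subcutaneous fat. The ER degradation genes had medians of 0.052 in gonadal fat, with 5 of 8 positive, and 0.037 in subcutaneous fat, with 5 of 8 positive. The gonadal median was 0.026 without GFP sample 1 and 0.028 without LCN2 sample 4 or GFP sample 4. The subcutaneous median was 0.013 without GFP sample 4, 0.057 without GFP sample 3 and 0.061 without LCN2 sample 1. Edem1 (ENSMUSG00000030104, chromosome 6, 108828641 to 108859356 on the plus strand) had gonadal normalized counts of 6639, 7359, 7073 and 7885 with LCN2, against 5612, 4833, 6511 and 4982 with GFP. The closest samples were 6639 with LCN2 and 6511 with GFP, and the difference was 0.41 ± 0.11 (adjusted p = 0.181, 95% interval 0.15 to 0.66). Its subcutaneous rlog values were 12.30, 12.56, 12.69 and 12.48 with LCN2, against 12.27, 11.99, 12.36 and 12.06 with GFP. There the groups overlapped through LCN2 sample 1 and GFP sample 3, and the difference was 0.34 ± 0.11 (adjusted p = 0.308).

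Sel1l (ENSMUSG00000020964, chromosome 12, 91806043 to 91849157 on the minus strand), the adaptor that holds the ERAD ubiquitin ligase complex together, had gonadal normalized counts of 6224, 6961, 6396 and 7645 with LCN2, against 5667, 6045, 5954 and 5612 with GFP. The groups did not overlap, and the difference was 0.22 ± 0.09 (adjusted p = 0.29). In subcutaneous fat it had rlog values of 12.39, 12.54, 12.60 and 12.47 with LCN2, against 12.19, 12.20, 12.41 and 12.29 with GFP. LCN2 sample 1 lay just below GFP sample 3, and the difference was 0.23 ± 0.07 (adjusted p = 0.308). Syvn1 (HRD1), the ubiquitin ligase that Sel1l serves, differed by 0.13 ± 0.13 in gonadal and 0.06 ± 0.09 in subcutaneous fat.

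Derl1 (ENSMUSG00000022365, chromosome 15, 57869502 to 57892448 on the minus strand), a membrane protein of the channel through which ERAD clients leave the ER, ran the other way. Its gonadal normalized counts were 8548, 6780, 7929 and 8735 with LCN2, against 10391, 10165, 10781 and 9031 with GFP. Every LCN2 sample lay below every GFP sample, and the difference was -0.34 ± 0.11 (adjusted p = 0.211, 95% interval -0.58 to -0.10). In subcutaneous fat Derl1 overlapped between groups, at 12.54, 12.43, 12.61 and 12.55 with LCN2, against 12.61, 12.58, 12.79 and 12.52 with GFP, a difference of -0.10 ± 0.07. The mesothelial markers given beside Xbp1 were lower with LCN2 in the same libraries. The sample of each group with the highest mesothelial sum, LCN2 sample 2 with 201.7 CPM and GFP sample 4 with 459.3 CPM, had its lowest Derl1 count. The other samples did not all follow this order. GFP sample 1 had a higher sum than GFP sample 2, 238.2 against 227.6 CPM, and also the higher Derl1 count. LCN2 sample 3 had the lowest sum of its group, 78.78 CPM, but not its highest Derl1 count. The part of these markers in the Derl1 value was not tested.

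The other 4 degradation genes had unadjusted p-values above 0.05 in both depots. Herpud1, an ERAD scaffold with an ERSE-II and a CARE match, differed by -0.08 ± 0.13 in gonadal and -0.07 ± 0.06 in subcutaneous fat. Edem2 and Edem3, mannosidase-like relatives of Edem1, differed by -0.01 ± 0.07 and 0.07 ± 0.10 in gonadal fat and by 0.02 ± 0.05 and 0.12 ± 0.06 in subcutaneous fat. Derl3, a relative of Derl1 prominent in secretory cells, was the lowest of the 34. Its gonadal normalized counts were 53.3, 35.3, 20.41 and 38.1 with LCN2, against 29.5, 29.5, 17.0 and 87.8 with GFP. GFP sample 4 was the highest, and that library was also the highest in the plasma cell genes Jchain, with 1050 reads against 43 to 347 in the other 7, and Igkc, with 3606 reads against 170 to 1134. Both genes were chosen after their values were seen. Of the 11 plasma cell markers 6 were highest per read in that library, Ighm, Irf4, Sdc1, Prdm1 and Tent5c were not, and the list summed to 428.1 CPM there, within the 150.8 to 542 CPM of the other samples. The Derl3 difference was 0.04 ± 0.48, and without each sample in turn it lay between -0.282, without GFP sample 3, and 0.487, without GFP sample 4. The part of plasma cells in it was not tested, and in subcutaneous fat its rlog values, 4.41 to 4.82, lie where that scale draws genes together.

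**Figure D4:**
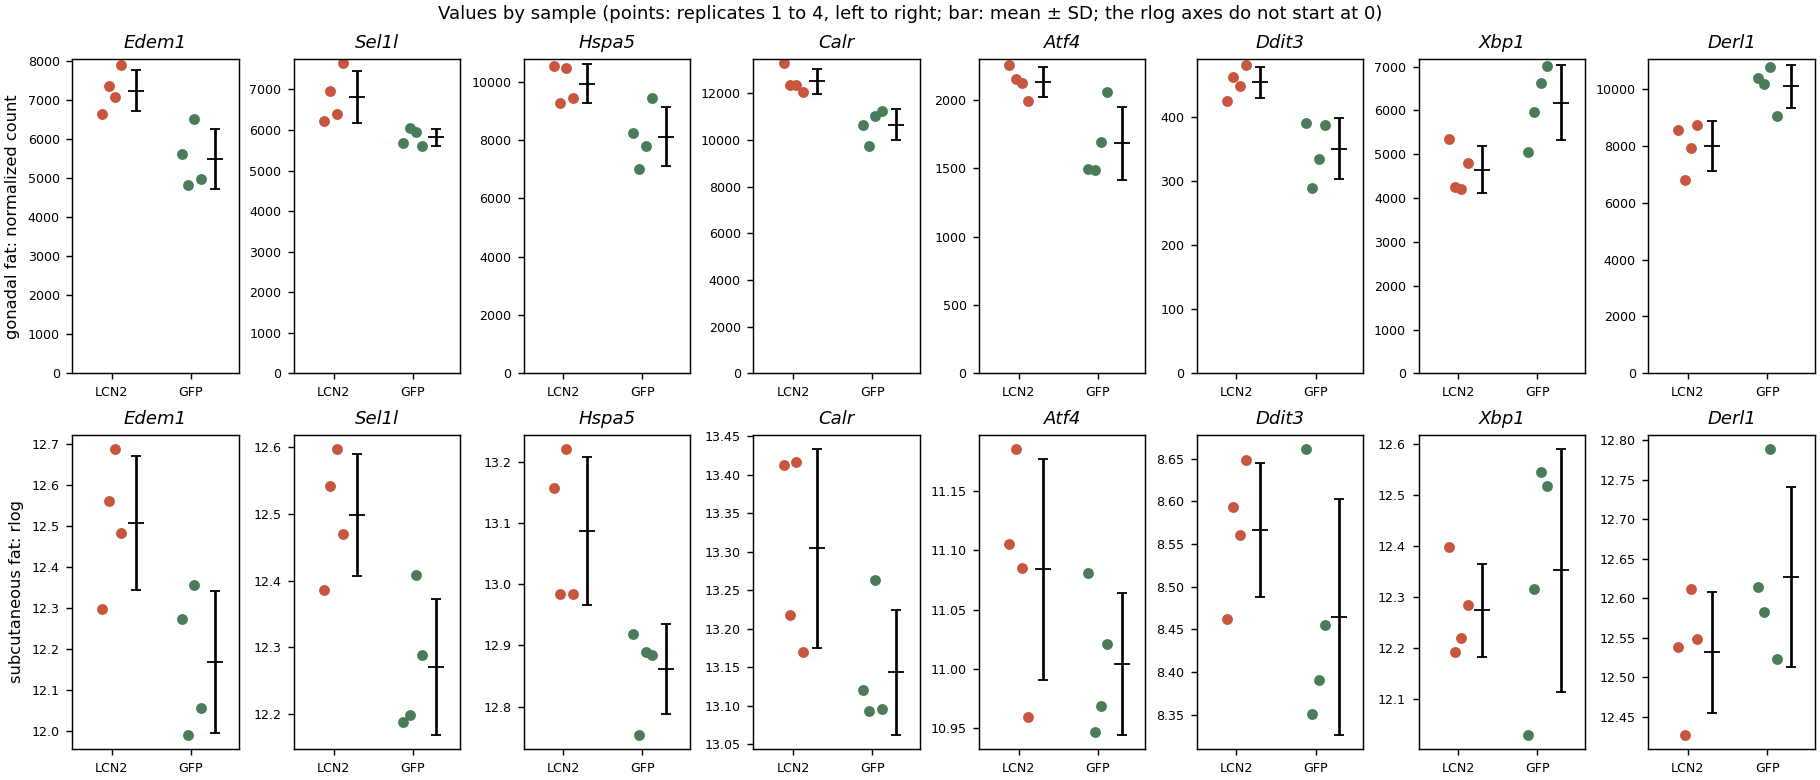
Values of 8 genes by sample, LCN2 left of GFP, as normalized counts in gonadal fat (top, axes from 0) and rlog in subcutaneous fat (bottom, axes not from 0), with the mean and SD of 4 samples beside the points. Edem1, Sel1l, Calr and Ddit3 are separated upwards and Derl1 downwards in the gonadal row, and of the 8 only Hspa5 is separated in the subcutaneous row.

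With another test on the reads recovered from the gonadal table, DESeq2 called 4.29% of all genes at an adjusted p of 0.05 and 2 of the 34, Edem1 at 0.40 ± 0.12 (adjusted p = 0.0306) and Derl1 at -0.34 ± 0.11 (adjusted p = 0.0462). The edgeR quasi-likelihood test called 0.0358% of all genes and none of the 34, with adjusted p-values of 0.201 for Edem1 and 0.215 for Derl1. Without GFP sample 4 in gonadal fat, limma called none of the 34, and 9 were under an unadjusted p of 0.05, as were 19.7% of all genes. Leaving out GFP samples 1 and 2 in subcutaneous fat gave differences of 0.30 for Edem1, 0.20 for Hspa5 and 0.15 for Sel1l, with 1 of the 34 and 4.55% of all genes under an unadjusted p of 0.05. In subcutaneous fat the 8 fibroblast and progenitor markers were all higher with LCN2, at a median of 0.387. Relative to their means they lay at 0.298, -0.074, 0.342 and 0.036 in the LCN2 samples, against -0.8, -0.113, 0.259 and -0.042 in the GFP samples, and their part in the Edem1, Sel1l and Hspa5 values was not tested.

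The size of any missed change is bounded for most genes. The 95% interval of the log2 difference lay within 0.5 either side of 0, a 1.41-fold change, for 24 of the 34 in gonadal fat and for 32 of the 34 in subcutaneous fat, where rlog values understate changes of low genes. The 10 gonadal genes not so bounded were Hspa5, Xbp1, Atf4, Ddit3, Trib3, Ppp1r15a, Asns, Edem1, Derl1 and Derl3, and the subcutaneous pair was Trib3 and Edem1. Apart from the group size, the labels do not state that each sample came from its own mouse, so p-values cover only the spread among the samples, which may be technical. The labels also do not say whether the depots came from the same mice, so the depots are not independent evidence of each other.

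Within groups, the 34 genes had a median SD of 0.145 on the log2 scale in gonadal fat, against 0.237 for all genes tested, and of 0.099 in subcutaneous fat, against 0.121. The genes were not matched on level for this description. Edem2 was the steadiest of the 34 in both depots, with SDs of 0.060 and 0.043. Derl3 with 0.789 and Trib3 with 0.491 varied most in gonadal fat, and Trib3 with 0.312 and Ppp1r15a with 0.233 in subcutaneous fat.

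Levels between genes were compared in gonadal fat alone, as reads per exonic length, scaled to the same sum over all genes in every sample. Calr stood highest with a level of 238 ± 9.73 with LCN2 and 197 ± 30.1 with GFP (SD, n = 4 each), and the mean of all 8 samples was at percentile 97.4 of the genes tested. Derl1 followed with 132 ± 15.9 with LCN2 and 160 ± 6.60 with GFP, then Pdia3 with 146 ± 5.64 and 131 ± 22.5, and Derl1 and Pdia3 overlap in their ranges over the 8 samples. The chaperones Hsp90b1, Hspa5 and Canx came next, with means over all samples of 124.5, 115.5 and 100.6. Sensors were far lower, with means of 13.9 for Atf6, 6.85 for Eif2ak3 and 6.74 for Ern1, with Eif2ak3 and Ern1 at percentiles 49.8 and 49.4 and not distinct from each other beyond their spread. Of the factors, Xbp1 had 89.8, Atf4 43.9 and Ddit3 12.7, and Derl3 closed the order with 1.08.

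**Figure D5:**
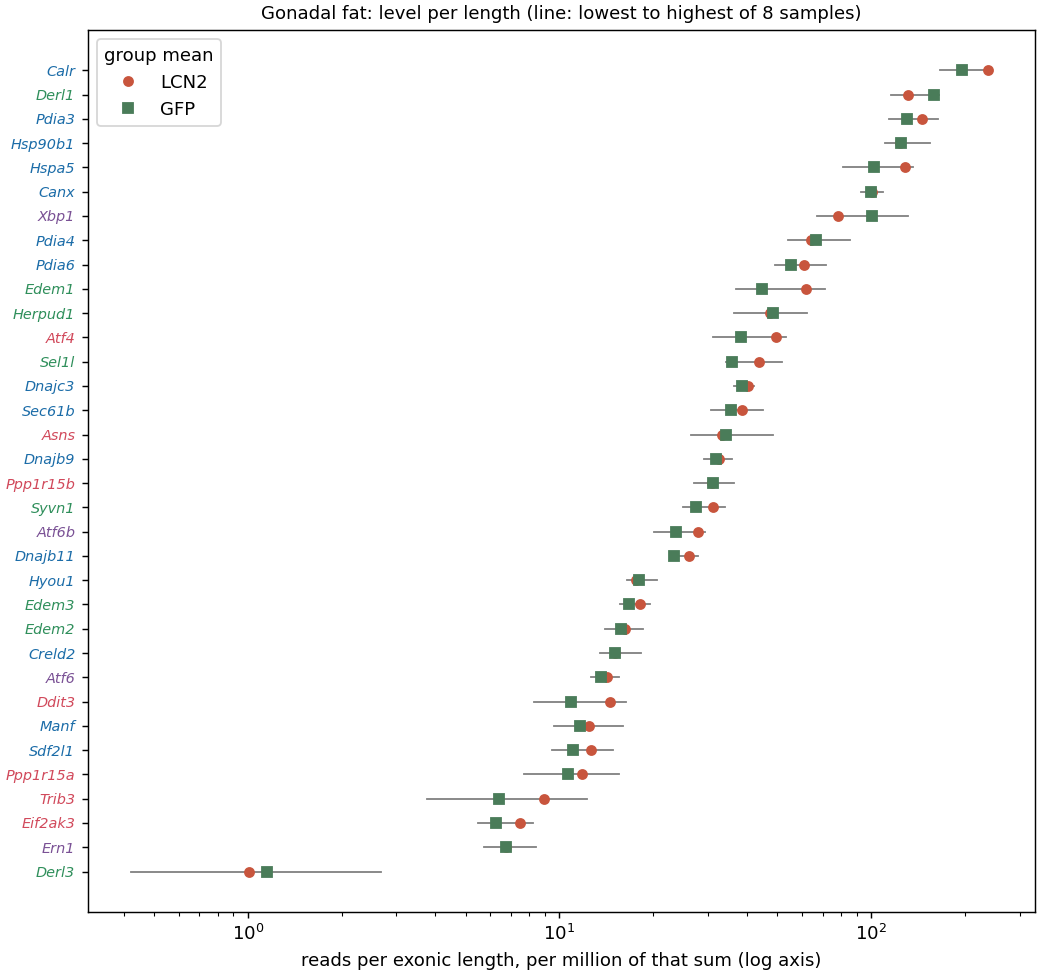
Level of the 34 genes in gonadal fat, as reads per exonic length scaled to the same sum in every sample, on a log axis, with group means of the 4 LCN2 samples (circles) and 4 GFP samples (squares) and a line from the lowest to the highest of the 8 samples. Names are coloured by role (blue for chaperones and folding, purple for sensors and factors, red for PERK-ATF4, green for ER degradation), and the genes run from Calr at the top to Derl3 at the bottom.

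Other genes of the same pathways were taken from lists of 109 genes in all. None passed an adjusted p of 0.05 by limma in either depot. The 32 further targets of ATF4 and CHOP had a median gonadal difference of 0.209, with 27 positive, beside 0.011 and 52% positive for all genes. Their subcutaneous median was 0.125, with 25 positive, beside -0.001 and 49.8%. At an unadjusted limma p under 0.05 were 7 in gonadal fat (14.8% of all genes) and 1 in subcutaneous fat (14%). This list too was chosen with earlier results known. Sesn2 (sestrin 2, a stress-induced inhibitor of mTORC1) had the smallest p of that list in both depots. Its gonadal normalized counts were 2450, 1986, 2123 and 1732 with LCN2, against 572, 1136, 1011 and 1059 with GFP, a difference of 1.17 ± 0.21 (adjusted p = 0.103). Its subcutaneous rlog values were 10.30, 10.45, 10.54 and 10.00 with LCN2, against 9.31, 9.54, 9.71 and 9.87 with GFP, a difference of 0.72 ± 0.15 (adjusted p = 0.308). In both depots every LCN2 sample lay above every GFP sample, while 1.81% of all genes tested in both were separated in the same direction in both. Sesn2 was named for its small p. Of the 32 genes, 2 were separated in gonadal fat and 1 in subcutaneous fat, all upwards, where 4.4% and 3.81% of all genes were.

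Second in p on this list were Vldlr, a lipoprotein receptor, in gonadal fat with 0.48 ± 0.16, and Slc7a11, a cystine transporter, in subcutaneous fat with 0.68 ± 0.30. Among 11 further sensors, proteases and ER factors, Wfs1 (wolframin, an ER membrane protein of calcium balance) was separated upwards in both depots. It had 1130, 1261, 1096 and 1296 normalized counts with LCN2, against 1001, 933, 998 and 882 with GFP, a difference of 0.32 ± 0.09 (adjusted p = 0.177). In subcutaneous fat its rlog values were 9.90, 9.98, 10.13 and 9.94 with LCN2, against 9.54, 9.66, 9.80 and 9.67 with GFP, a difference of 0.32 ± 0.07 (adjusted p = 0.308). Wfs1 too was named for its small p. Of this list, 1 of 9 genes tested was separated upwards in gonadal fat and 2 of 10 in subcutaneous fat, where 4.4% and 3.81% of all genes were. Of all genes tested in both depots, 1.81% were separated the same way in both. Creb3, an ER-bound transcription factor, differed by 0.28 ± 0.10 in gonadal fat, and its relative Creb3l1 by 0.86 ± 0.23 in subcutaneous fat. DESeq2 on recovered reads called Sesn2 and Wfs1 in gonadal fat, at 1.133 and 0.327. It called 4.29% of all genes there, and edgeR called 0.0358%. Sesn2 and Wfs1 had already been named for their small limma p, and DESeq2 calls among the rest of these lists are not given here.

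Cytosolic heat shock genes, which answer to unfolded protein outside the ER, served as a list for contrast. Their median difference was -0.028 in gonadal fat, with 6 of 12 positive, and 0.038 in subcutaneous fat, with 7 of 12 positive. Bag3, a co-chaperone of Hsp70, had 2162, 2420, 2218 and 2156 normalized counts with LCN2, against 1693, 1854, 1790 and 2019 with GFP, a difference of 0.29 ± 0.08 (adjusted p = 0.184), and 0.21 ± 0.09 in subcutaneous fat. Hspa1b, an inducible Hsp70, lay the other way in gonadal fat at -0.46 ± 0.16, and Hspb1, a small heat shock protein, differed by 0.26 ± 0.10 in subcutaneous fat. Whether the ER genes differ from the heat shock genes was not tested.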

How the data were processed

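Stranded mRNA libraries were made from fat RNA with an integrity number above 8.2, per the labels' protocols. The submitters' processing notes name HISAT2, DESeq2, GRCm38 and mm10. Versions, the annotation, the strand setting and the tool used for counting: not given in the sources used here. In the gonadal table the authors deposited a signal per gene, that is counts over a size factor for each sample. After division by the value of 1 read, 100% of entries were whole within 1e-06 (recovered reads), and 3 reads equal 2.49 to 3.40 normalized counts. The subcutaneous table deposited by the authors holds rlog values, a log2 unit.

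limma 3.58.1 (R 4.3.3), with an intensity trend, was fitted per depot on log2(normalized count + 1) for the 19536 genes averaging 10 or more, and on rlog for the 20302 averaging 3 or more. Both scales understate fold changes of low genes. P-values were Benjamini-Hochberg adjusted. edgeR 4.0.16 and DESeq2 1.42.0 ran on recovered reads as alternatives. The fits were tested on simulated data with changes larger than any difference of the ER genes, so that test does not cover changes of their size. Symbols and exonic lengths matched 99.2% of identifiers. Every pair of libraries differed by more than noise in gonadal fat (mean chi-square per gene at least 45.8), and SDs of rlog differences were at least 0.198.

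The genes and lists were chosen with earlier results of these data known. Named genes are all 34, Lcn2 and, per further list and depot, genes past the threshold and the 2 smallest p. Alternatives covered scaling, filters, pseudocounts, tests, a replicate block and left-out samples. Those that leave out several libraries with other tissues' transcripts were added after seeing the data. Protein sequences were not used here.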

Additional observations from a re-analysis of the deposited data

Results flagged for a closer look

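Each of the 34 genes was looked at in each group of 4 samples for 1 sample far from the other 3 (its gap to the nearest, as a share of the group's range, above Dixon's critical value). Of 136 such groups 13 held one, 9.56%, where chance gives about 1 in 20. In gonadal fat GFP sample 4 stood high for Pdia6 (4401 normalized counts) and Sdf2l1 (270.2) and low for Dnajb11 (1247). LCN2 sample 1 stood high for Creld2 (465.7) and Ppp1r15a (868.4), LCN2 sample 3 low for Ern1 (896.8), and GFP sample 2 high for Asns (2693). In subcutaneous fat GFP sample 3 stood high for Calr (rlog 13.26) and LCN2 sample 1 for Pdia4 (11.6). LCN2 sample 2 stood low for Hyou1 (11.04) and LCN2 sample 3 high for Sec61b (9.93). Derl3 was low in LCN2 sample 3 (4.407) and in GFP sample 3 (4.447).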

How the results depend on the processing

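In gonadal fat the number of all genes called, 20 as reported, was 11 with a filter at a mean of 50, 6 when scaled to sample totals, 6 with no intensity trend, 71 with sample quality weights and 75 at an adjusted p of 0.1. It was 818 by DESeq2 and 7 by edgeR on recovered reads, and 1 to 66 without each sample in turn, the highest without GFP sample 4. It was 0 without LCN2 sample 4 and GFP sample 2 (1693 at an unadjusted p under 0.05) and 0 without LCN2 samples 1 and 2 and GFP sample 1 (1631). Of the 34 genes DESeq2 called 2, and limma and edgeR called 0 in every gonadal setting run. At an unadjusted p under 0.05, 3 of the 34 and 8.41% of all genes passed without LCN2 samples 1 and 2 and GFP sample 1, 4 and 8.67% without LCN2 sample 4 and GFP sample 2, and in subcutaneous fat 6 of the 34 with quantile normalization (13.9% of all), 7 with the replicate block (15.8%) and 9 with sample quality weights (28.7%). The causes were not tested.

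The replicate block called 0 of all gonadal genes (2636 at an unadjusted p under 0.05) and 0 of the 34. Same-numbered samples correlated at 0.247, -0.359, 0.424 and 0.018 in gonadal and at -0.11, -0.33, 0.339 and -0.355 in subcutaneous fat. Number 3 matched itself best in both depots, against at most 0.059 and 0.002 with other numbers, as did gonadal number 1, against 0.099. The other numbers matched a different number best. The labels do not say what a number marks, so the main fits did not pair samples. Whether some numbers share a source was not tested. The median of the 34 in gonadal fat was 0.018 to 0.08 without each sample in turn, the lowest without LCN2 sample 1, and 0.019 without LCN2 samples 1 and 2 and GFP sample 1. The sign held in all 22 gonadal settings for 22 of 34 genes and in all 18 subcutaneous settings for 21 of 34.

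Lcn2 differed by 1.595 without LCN2 sample 4 and GFP sample 2 and by 2.762 without LCN2 samples 1 and 2 and GFP sample 1, designs too small for an exact p under 0.05. In subcutaneous fat it was 0.723 to 1.164 without each sample in turn, 0.822 without GFP samples 1 and 2 and 0.591 without LCN2 sample 4 as well.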

Other observations

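Among further ER genes outside the arms above, none passed an adjusted p of 0.05 by limma. For all genes the median difference was 0.011 with 52% positive in gonadal fat, and -0.001 with 49.8% positive in subcutaneous fat. Folding, disulfide and glycan enzymes had a median log2 difference of 0.034 in gonadal fat, with 13 of 19 positive, and 0.090 in subcutaneous fat, with 15 of 19 positive. The smallest p-values there belonged to Txndc11, a thioredoxin-domain protein (0.23 ± 0.08, SE), and Fkbp14, a prolyl isomerase of the ER (0.28 ± 0.13), in gonadal fat, and to Hspa13 (0.21 ± 0.07) and Fkbp7 (0.29 ± 0.10) in subcutaneous fat. Translocation, signal peptidase and glycosylation genes had medians of 0.005, with 11 of 21 positive, and 0.063, with 16 of 21 positive. Ostc (0.21 ± 0.17) and Ssr2 (0.12 ± 0.10) led by p in gonadal fat, and Rpn2 (0.21 ± 0.09) and Ssr3 (0.21 ± 0.09) in subcutaneous fat.

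Further degradation genes had medians of -0.011 in gonadal fat, with 7 of 16 positive, and 0.061 in subcutaneous fat, with 13 of 17 positive. Erlec1, a lectin of ERAD (0.24 ± 0.09), and Faf2 (0.14 ± 0.07) led in gonadal fat. In subcutaneous fat H13, the signal peptide peptidase, was separated upwards (0.22 ± 0.05, adjusted p = 0.308) and Aup1, a lipid droplet and ERAD protein, downwards (-0.18 ± 0.06). Of the 17 tested there, 3 were separated upwards and 1 downwards, where 3.81% and 3.27% of all genes were. The other eIF2alpha kinases and eIF2 subunits had medians of 0.027, with 6 of 9 positive, and 0.070, with 8 of 9 positive. Eif2ak2 (PKR) differed by 0.15 ± 0.09 in gonadal and 0.20 ± 0.07 in subcutaneous fat, Eif2b1 by -0.10 ± 0.07 in gonadal fat and Eif2b3 by 0.20 ± 0.06 in subcutaneous fat.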
